A study of Mustela putorius furo and Mus musculus with 4 samples.

Results

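The genes described here are 10 subunits of the ionotropic glutamate receptors, taken by symbol from the 13373 gene symbols with a value in both species. They are the AMPA receptor subunits Gria1, Gria2, Gria3 and Gria4, the kainate receptor subunits Grik1, Grik2, Grik4 and Grik5, and the NMDA receptor subunits Grin1 and Grin2a. All 10 had 1 value per library. Primary astrocytes were cultured from the cerebral cortex of normally pigmented sable ferrets at postnatal day 1 and of wild-type ICR mice at postnatal day 1 to 3. Mixed glia of both species grew in serum for 14 days, were shaken to remove loose cells, were replated and were then kept without serum for several days before RNA was taken. Each mouse flask pooled cells of several pups, whereas the cells of 1 ferret pup filled several flasks. There were 2 libraries per species, and the sources used here do not state whether duplicates came from separate cultures, so the spread between them may be technical.

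Ionotropic glutamate receptors are cation channels built of 4 subunits that open when glutamate binds. AMPA receptors carry fast excitatory current, kainate receptors modulate it, and NMDA receptors need a co-agonist and pass calcium. Astrocytes are known to express AMPA receptor subunits, and the mix of subunits sets the conductance and the calcium permeability of the channel. The subunit Gria2 is the known gatekeeper of calcium: RNA editing by the enzyme encoded by Adarb1 changes a glutamine codon in the pore loop of its transcript, and receptors that contain edited Gria2 pass little calcium.

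The stretch around that pore codon is shown because editing there sets how Gria2 differs in function from the other AMPA subunits compared below. The lines are 39 bases of mouse coding sequence each, read 5′ to 3′ from GENCODE transcripts on GRCm38, with the codon that corresponds to the edited codon of Gria2 in capitals.
Gria1: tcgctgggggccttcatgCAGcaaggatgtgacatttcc
Gria2: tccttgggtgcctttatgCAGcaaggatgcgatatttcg
Gria3: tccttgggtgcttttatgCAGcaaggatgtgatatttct
Gria4: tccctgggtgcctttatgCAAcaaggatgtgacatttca
Grik1: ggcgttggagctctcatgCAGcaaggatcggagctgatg
Grik2: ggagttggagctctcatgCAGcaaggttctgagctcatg
The mouse genes Gria1, Gria2 and Gria3 span chr11:57011387-57330244 on the plus strand, chr3:80681450-80802835 on the minus strand and chrX:41400854-41678601 on the plus strand. The capital codon lies in exon 11 of Gria2 on the minus strand, at chr3:80706911-80706913. It lies in exon 11 of Gria1 at chr11:57243094-57243096, in exon 12 of Gria3 at chrX:41610265-41610267, and in exon 12 of Gria4 at chr9:4464137-4464139. Among the AMPA subunits, the window of Gria3 differed from that of Gria2 at 3 of 39 bases, that of Gria4 at 5 and that of Gria1 at 7. The kainate subunits Grik1 (chr16:87940542-87940544) and Grik2 (chr10:49244329-49244331) differed from Gria2 at 15 and 17 bases and from each other at 4. The values below are in FPKM, fragments relative to the exon length of the gene and to the size of the library, and do not say whether a transcript was edited.

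Ferret and mouse astrocytes differed more in which AMPA subunits they held than in the summed AMPA level. With FPKM as deposited, that level was 67.3 ± 1.06 FPKM in ferret and 59.1 ± 0.94 FPKM in mouse astrocytes (SD, n = 2 each). It was not rescaled for the FPKM summed over shared symbols, 227391 to 236543 in ferret and 300465 to 308121 in mouse libraries. In ferret astrocytes Gria1 and Gria2 led and Gria3 was scarce. In mouse astrocytes Gria3 led, followed by Gria2, and Gria1 was scarce. Across the 10 subunits, 7 averaged at least 1 FPKM in a species and were tested. Of these, 4 were called higher and 1 lower in ferret than in mouse astrocytes, where a call by limma required both an adjusted p under 0.05 and a log2 difference beyond 1 in size. The same call was made for 43.2% of the 10204 genes tested, 13.1% in the higher and 30.1% in the lower direction, so a call by itself is common in this comparison. The adjusted p alone was passed by all 7, with 5 higher and 2 lower, and by 88.6% of all genes tested, 32.4% higher and 56.2% lower. The median log2 difference of the 10 subunits was 0.22 in a fit without a minimum level, and that of all 13373 symbols was -0.11.

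**Figure D1:**
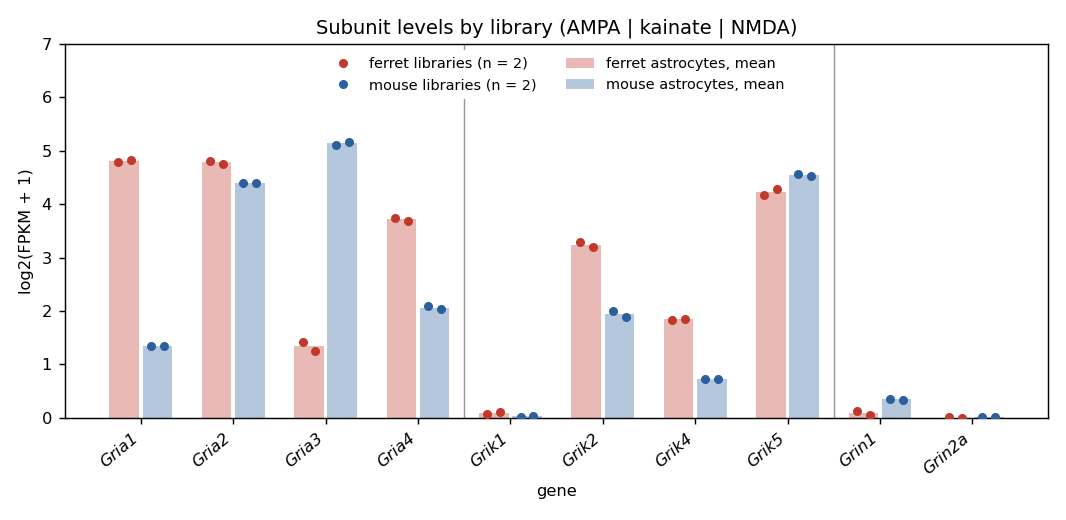
Level of each subunit in each library as log2(FPKM + 1), with points for the 2 libraries of a species and bars for their mean on that scale, and vertical lines between the AMPA, kainate and NMDA subunits. Gria1 stands at 26.8 and 27.4 FPKM in ferret and 1.55 in both mouse libraries, Gria3 shows the opposite order, and Grin1 and Grin2a lie near 0 in all libraries.

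Gria1, which encodes GluA1, stood at 26.8 and 27.4 FPKM in ferret astrocytes and at 1.55 and 1.55 FPKM in mouse astrocytes. Both ferret libraries were far above both mouse libraries. The ferret mean was 17.5 times the mouse mean, and limma put the log2 difference at 3.46 ± 0.069 (SE) with a Benjamini-Hochberg adjusted p = 8.19e-11. Gria3, which encodes GluA3, had 1.68 and 1.38 FPKM in ferret and 33.5 and 34.998 FPKM in mouse astrocytes. Here both mouse libraries were the high ones, and the mouse mean was 22.4 times the ferret mean. By limma the log2 difference was -3.80 ± 0.079 (SE), adjusted p = 1.03e-10. On the percentile scale of all shared symbols, Gria1 stood at 86.3 in ferret and 31.0 in mouse astrocytes, and Gria3 at 34.8 and 85.5. The pair thus held opposite places when ranked within each species.

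Gria4, which encodes GluA4, had 12.4 and 11.9 FPKM in ferret and 3.25 and 3.10 FPKM in mouse astrocytes. The species did not overlap, and limma gave a log2 difference of 1.65 ± 0.072 (SE), adjusted p = 1.13e-08. Gria2, which encodes GluA2, had 27.2 and 25.8 FPKM in ferret and 20.1 and 20.1 FPKM in mouse astrocytes. It was the AMPA subunit with the smallest difference. The ferret libraries were higher by 0.38 ± 0.061 (SE) on the log2 scale (limma, adjusted p = 2.04e-04), which is too small a difference for a call although the p passed. The 95% interval of that difference ran from 0.24 to 0.52 with FPKM as deposited. The difference of Gria2 depended on scaling, at 0.76 with libraries rescaled to equal sums and 0.78 after quantile normalization, and was not called in either.

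Shares within a family were taken library by library, because a share does not depend on how one library is scaled against another. Summed over the AMPA subunits, the level was 68.0 and 66.5 FPKM in ferret and 58.4 and 59.7 FPKM in mouse astrocytes. Gria1 made up 39.4% and 41.2% of that sum in ferret and 2.66% and 2.59% in mouse astrocytes. Gria3 made up 2.46% and 2.08% in ferret and 57.3% and 58.6% in mouse astrocytes. The 2 subunits therefore had opposite parts in the mix, with a gap between species of 37.7 percentage points for Gria1 and -55.7 for Gria3 (ferret minus mouse), against SDs of at most 1.27 points between duplicates. The share of Gria2 was 39.4% ± 0.76 (SD, n = 2) for ferret and 34.0% ± 0.57 (SD, n = 2) for mouse astrocytes. Gria4 followed with 18.02% ± 0.24 (SD, n = 2) and 5.38% ± 0.27 (SD, n = 2). For each of these 4 shares the species did not overlap, and the exact two-sided permutation test gave p = 0.333, the smallest value that 2 libraries against 2 allow.

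**Figure D2:**
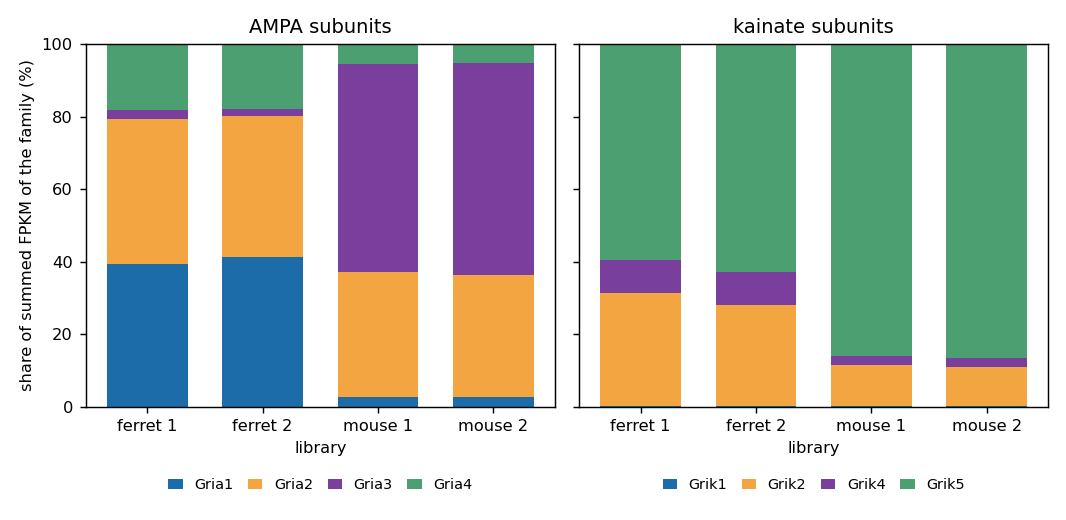
Stacked bars of the share (%) of each subunit in the summed FPKM of its family, 1 bar per library, with the AMPA subunits on the left and the kainate subunits on the right. The ferret AMPA bars are mostly Gria1 and Gria2 (39.4% to 41.2% and 38.8% to 39.9%), the mouse AMPA bars mostly Gria3 (57.3% and 58.6%), and Grik5 is the widest kainate segment in all 4 libraries.

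Within a library, Gria1 exceeded Gria3 by log2 ratios of 4.0 and 4.31 in ferret astrocytes, whereas in mouse astrocytes the ratios were -4.43 and -4.50. The ratio of Gria2 to Gria1 was near parity in ferret astrocytes, at log2 ratios of 0.018 and -0.086, and was 3.70 in both mouse libraries. Measured against all other AMPA subunits together, Gria2 stood at a ratio of 0.650 ± 0.021 in ferret and 0.516 ± 0.013 in mouse astrocytes (SD, n = 2 each). The other AMPA subunits thus outweighed Gria2 in both species.

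FPKM divides by the length of the gene model, and the annotation of each species supplies its own model. The exonic length of the 10 mouse genes in GENCODE ran from 5168 to 17933 bp and their longest coding sequence from 2649 to 4392 bp, so the gene models differ more in length than the coding sequences do. Lengths of the ferret models were not compared here, and the gene lengths that the study lists in its supplement were not used. The Ensembl models behind the FPKM may differ in length from those of GENCODE. How far model length enters the differences and shares was not tested, and it cannot be removed by rescaling a library.

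Among the kainate subunits, ferret astrocytes had more of Grik2 and Grik4, and Grik5 was the most abundant member in both species. Grik5 encodes GluK5, which binds glutamate with high affinity and needs a partner such as GluK2 to form a channel. It had 16.9 and 18.4 FPKM in ferret and 22.6 and 21.9 FPKM in mouse astrocytes. Both mouse libraries were the higher ones with FPKM as deposited, with a limma log2 difference of -0.32 ± 0.066 (SE), adjusted p = 0.00122, but the sign turned to 0.054 when libraries were rescaled to equal sums and to 0.070 after quantile normalization. Grik2, which encodes the partner GluK2, had 8.84 and 8.13 FPKM in ferret and 2.98 and 2.73 FPKM in mouse astrocytes. The species did not overlap, and limma put the log2 difference at 1.30 ± 0.079 (SE), adjusted p = 1.31e-07. Grik4, which encodes the other high-affinity subunit GluK4, had 2.57 and 2.62 FPKM in ferret and 0.653 and 0.658 FPKM in mouse astrocytes. Here too both ferret libraries were the high ones (limma log2 difference 1.12 ± 0.075 SE, adjusted p = 2.76e-07). Grik1, which encodes GluK1, was near 0 everywhere, with 0.050 and 0.081 FPKM in ferret and 0.017 and 0.022 FPKM in mouse astrocytes.

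The kainate sum was 28.4 and 29.3 FPKM in ferret and 26.3 and 25.3 FPKM in mouse astrocytes. Grik5 held 61.3% ± 2.33 (SD, n = 2) of it in ferret and 86.3% ± 0.32 in mouse astrocytes (SD, n = 2). Grik2 held 29.5% ± 2.36 (SD, n = 2) and 11.1% ± 0.41 (SD, n = 2), and Grik4 held 9.004% ± 0.046 (SD, n = 2) and 2.54% ± 0.081 (SD, n = 2). The mix in ferret astrocytes was therefore less dominated by Grik5, by a margin larger than the spread between duplicates (exact permutation p = 0.333, the smallest possible, for each of the 3 shares). Over the sum of all 10 subunits, AMPA subunits held 69.95% ± 0.74 (SD, n = 2) for ferret and 69.4% ± 0.91 (SD, n = 2) for mouse astrocytes. These ranges overlapped between the species (exact two-sided permutation p = 0.667), and so did the kainate shares of 30.0% ± 0.78 and 30.3% ± 0.88 (SD, n = 2 each, exact permutation p = 0.667). The overlap of both shares ended when further receptor genes were added to the sum, as given below with those genes.

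The NMDA subunits Grin1 and Grin2a were scarce in both species. Grin1 encodes GluN1, without which NMDA receptors do not assemble. It had 0.088 and 0.041 FPKM in ferret and 0.285 and 0.256 FPKM in mouse astrocytes. Both mouse libraries were above both ferret libraries, and its mean stood at the percentile 16.7 of shared symbols in ferret and 21.3 in mouse astrocytes. Grin2a, which encodes the glutamate-binding subunit GluN2A, had 0.008 FPKM and a listed 0 in ferret and 0.017 and 0.010 FPKM in mouse astrocytes. Grik1, Grin1 and Grin2a averaged under 1 FPKM in both species and were left out of the main test. In the fit without a minimum level, the log2(FPKM + 1) differences were 0.06 for Grik1 (adjusted p = 0.0481 by limma), -0.25 for Grin1 (adjusted p = 0.0047) and -0.01 for Grin2a (adjusted p = 0.196), all on a scale that compresses such low values. Read counts were not used here, so no detection limit is given for these low values.

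Ordered by level, the ferret members ran Gria1, Gria2, Grik5, Gria4, Grik2, Grik4, Gria3, Grik1, Grin1 and Grin2a. Gria1 and Gria2 overlapped between duplicates, as did Grik1 and Grin1, and every other neighbouring pair was separated. The mouse order was Gria3, Grik5, Gria2, Gria4, Grik2, Gria1, Grik4, Grin1, Grik1 and Grin2a, in which Grik1 and Grin2a overlapped. None of the 10 subunits overlapped between species. This was also the case for 94.1% of the 10204 genes tested and 86.1% of all shared symbols. The genes closest in level to Gria2, the member with the highest mean over the 4 libraries, were Pcm1, Afg3l2 and Rgcc, at Euclidean distances of 0.029, 0.097 and 0.129 in log2(FPKM + 1) over 4 libraries.

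**Figure D3:**
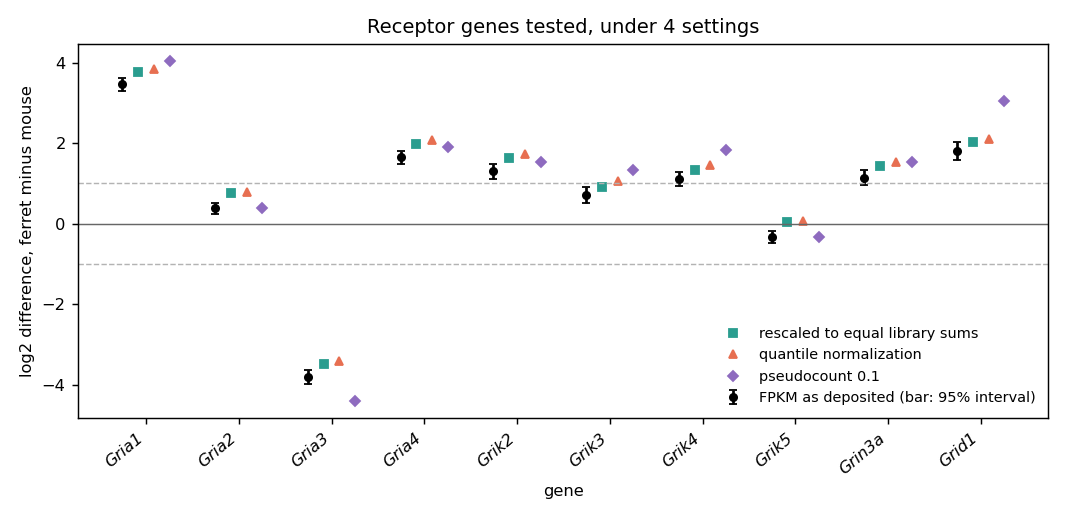
Log2 difference, ferret minus mouse, of the 10 receptor genes tested, with FPKM as deposited (black, bars for the 95% interval), after rescaling to equal library sums, after quantile normalization and with a pseudocount of 0.1, and dashed lines at the log2 difference of 1 in either direction that a call requires. Gria3 lies near -3.8 and Gria1 near 3.5 with FPKM as deposited, and Grik5 alone changes sign between settings.

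A further 7 genes of ionotropic receptor subunits were read in the same way. Of the 3 tested by limma, 2 were called higher and 0 lower in ferret astrocytes, and by p alone, adjusted or not, 3 were higher and 0 lower. The call was made for 13.1% of all genes tested in the higher and 30.1% in the lower direction. By the adjusted p alone these shares were 32.4% and 56.2%. Grid1 encodes a subunit of the delta receptors, relatives of the other families that organize synapses by binding cerebellins. It had 3.91 and 3.79 FPKM in ferret and 0.272 and 0.519 FPKM in mouse astrocytes. Both ferret libraries were the high ones, and limma put the log2 difference at 1.80, adjusted p = 4.94e-08. Grin3a, which encodes the glycine-binding subunit GluN3A, had 4.35 and 4.81 FPKM in ferret and 1.51 and 1.54 FPKM in mouse astrocytes and was called higher, at a log2 difference of 1.14. It was the NMDA subunit gene with the highest level in either species, at 74.7% ± 3.74 (SD, n = 2) of the summed NMDA subunits in ferret and 43.8% ± 0.45 in mouse astrocytes (SD, n = 2).

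The kainate subunit Grik3 had 1.41 and 1.74 FPKM in ferret and 0.532 and 0.578 FPKM in mouse astrocytes, a log2 difference of 0.72 that was not called. The 4 other NMDA subunit genes averaged under 1 FPKM in both species. Grin2b had 0.689 and 0.494 FPKM in ferret against 0.064 and 0.122 in mouse astrocytes, and Grin3b had 0.836 and 0.805 against 0.247 and 0.238. Grin2c and Grin2d leaned the other way, with 0.010 and 0.011 against 0.682 and 0.814 FPKM for Grin2c and 0.060 and 0.059 against 0.616 and 0.561 FPKM for Grin2d. With these 7 genes added to the sum, AMPA subunits held 63.1% and 61.9% in the ferret and 65.7% and 66.6% in the mouse libraries, and the species no longer overlapped. Kainate subunits held 27.7% and 28.8% in ferret and 30.2% and 28.9% in mouse astrocytes, which also did not overlap, by a narrow margin. For both, the exact two-sided permutation p = 0.333 was the smallest possible. NMDA subunits held 5.70% ± 0.13 and 3.90% ± 0.074 (SD, n = 2 each), and Grid1 held 3.58% and 0.442%.

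AMPA and kainate receptors reach the surface with auxiliary subunits that set their gating. Of 13 AMPA auxiliary genes, 12 were shared and 8 were tested, with 0 called higher and 4 lower in ferret astrocytes by limma. Among all genes tested, 43.2% were called, 13.1% higher and 30.1% lower, so these counts describe single genes and not the group. By p alone, adjusted or not, 3 of the 8 were higher and 4 lower. The adjusted p alone was passed by 32.4% of all genes tested in the higher and 56.2% in the lower direction. Cacng8, which encodes the TARP gamma-8, had 0.091 and 0.036 FPKM in ferret and 5.31 and 6.14 FPKM in mouse astrocytes (log2 difference -2.66). Cacng5, which encodes TARP gamma-5, had 0.476 and 0.689 FPKM in ferret and 6.38 and 6.52 FPKM in mouse astrocytes (log2 difference -2.24). Cpt1c, which encodes a carnitine palmitoyltransferase that binds GluA1 in the endoplasmic reticulum, had 5.91 and 6.36 FPKM in ferret and 28.8 and 29.7 FPKM in mouse astrocytes (log2 difference -2.08). For these 3 genes the species did not overlap, and the calls held under each scaling tried. Cacng7, which encodes TARP gamma-7, was the most abundant auxiliary gene in mouse astrocytes, at 39.2 and 39.6 FPKM against 18.2 and 17.2 FPKM in ferret astrocytes. Its log2 difference of -1.11 shrank to -0.74 after rescaling to equal sums, where it was no longer called.

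Shisa6, which encodes an AMPA receptor protein that slows desensitization, led the list in ferret astrocytes with 24.6 and 27.7 FPKM, against 14.8 and 14.6 FPKM in mouse astrocytes. Its log2 difference was 0.79 with FPKM as deposited and 1.16 after rescaling. With the libraries rescaled, Cacng4, Cnih2 and Shisa6 were called higher and Cacng5, Cacng8 and Cpt1c lower. Of all 10204 genes tested, 1954 were then called higher and 2215 lower. The counts of this list thus depended on scaling, as did those of all genes. Set against the AMPA subunits of the same library, Shisa6 stood at a ratio of 0.389 ± 0.039 in ferret and 0.249 ± 0.007 in mouse astrocytes (SD, n = 2 each), and Cacng7 at 0.263 ± 0.007 (SD, n = 2) and 0.668 ± 0.006 (SD, n = 2). Of the kainate auxiliary genes, Neto1 was called higher in ferret astrocytes, at 1.32 and 1.40 against 0.185 and 0.109 FPKM (log2 difference 1.04), and was under the limit of 1, at 0.99, without mouse replicate 2. Neto2 had 15.4 and 13.2 FPKM in ferret and 21.8 and 23.4 FPKM in mouse astrocytes, a log2 difference of -0.63 that was not called.

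**Figure D4:**
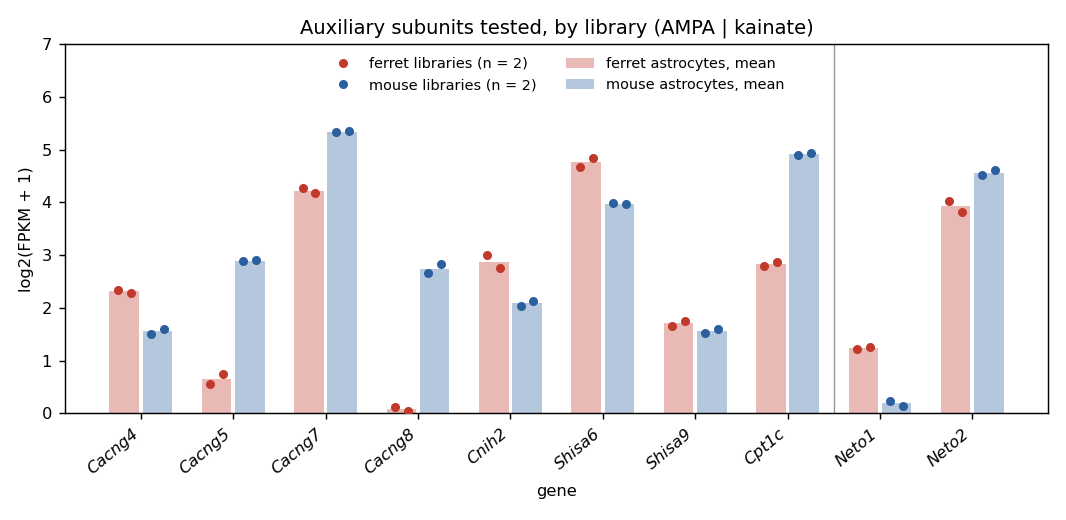
Level of the auxiliary subunit genes tested, as log2(FPKM + 1), with points for the 2 libraries of a species and bars for their mean on that scale, AMPA receptor genes left of the vertical line and kainate receptor genes right of it. Cacng5, Cacng8 and Cpt1c stand lower in ferret libraries and Shisa6 higher. No gene overlaps between species, as was the case for 94.1% of the 10204 genes tested, and Shisa9 differs by only 0.15 on the log2 scale.

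Of the 3 genes of RNA editing enzymes, 2 were tested and 0 were called by limma, with 1 higher and 1 lower in ferret astrocytes by p alone, adjusted or not. Among all genes tested, 43.2% were called, and 88.6% passed the adjusted p alone, 32.4% higher and 56.2% lower. Adarb1, whose product edits the pore codon of Gria2, had 1.55 and 1.64 FPKM in ferret and 3.12 and 3.65 FPKM in mouse astrocytes, with a limma log2 difference of -0.75 ± 0.086 (SE), adjusted p = 1.61e-05. The difference of Adarb1 depended on the setting, at -1.03 with a pseudocount of 0.1, where it was called lower, and at -0.33 after quantile normalization. Relative to the FPKM of Gria2 in the same library, Adarb1 stood at 0.060 ± 0.004 in ferret and 0.168 ± 0.019 in mouse astrocytes (SD, n = 2 each). Adar, which encodes the broader editing enzyme, had 19.2 and 20.6 FPKM in ferret and 16.4 and 14.5 FPKM in mouse astrocytes.

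The libraries hold RNA of whole cultures, in which fewer cells of a type and less RNA per cell cannot be told apart. The paper counted stained cells in cultures kept in serum, and nearly all were astrocytes in both species. It reports few microglia in both, few neurons in ferret cultures, and lists no oligodendrocytes. Cells kept without serum, as for the RNA, were not counted there. Gfap, the standard astrocyte marker, stood between 1429 and 1546 FPKM in all 4 libraries, and the transporter gene Slc1a2 at 0.133 and 0.178 FPKM in ferret and 47.1 and 51.8 FPKM in mouse astrocytes. Of the 10 astrocyte markers tested, 1 (S100b) was called higher and 6 lower in ferret astrocytes. The 6 were Aqp4, Aldh1l1, Slc1a2, Slc1a3, Gja1 and Ndrg2. The 10 markers summed to 3576 to 3674 FPKM in ferret and 3258 to 3530 FPKM in mouse astrocytes. Most of that sum came from Gfap and Aldoc, which were not called with FPKM as deposited. Aldoc had 1619 and 1700 FPKM in ferret and 916 and 1015 FPKM in mouse astrocytes. With libraries rescaled to equal sums or quantile normalized, 2 astrocyte markers were called higher and 4 lower. For comparison with this and the following marker lists, 13.1% of all genes tested were called higher and 30.1% lower with FPKM as deposited. By the adjusted p alone, 32.4% were higher and 56.2% lower. Of the 10204 genes tested, 1954 were called higher and 2215 lower after rescaling, and 2076 and 2090 after quantile normalization. Of 13 neuron markers, 10 were shared and 6 tested, and limma called 4 higher, including Syt1 and Nefl, and 0 lower in ferret astrocytes (5 and 0 by p alone, adjusted or not). Their summed level ran from 18.7 to 19.9 FPKM in ferret and 5.37 to 5.76 FPKM in mouse astrocytes, while Rbfox3, which marks mature neurons, had a listed 0 and 0.035 FPKM in ferret and 0.067 and 0.084 FPKM in mouse astrocytes. Of 12 oligodendrocyte lineage markers, 11 were shared and 10 tested, and limma called 5 higher and 0 lower (8 and 2 by p alone, adjusted or not). With libraries rescaled or quantile normalized, 7 were called higher. Mbp, which was called, had 28.5 and 33.1 FPKM in ferret and 2.95 and 1.78 FPKM in mouse astrocytes. Cnp, the marker of highest mean in both species, was not called, at 79.9 and 92.0 FPKM in ferret and 45.6 and 47.7 FPKM in mouse astrocytes. Olig2 and Cspg4 were lower in ferret astrocytes, at log2 differences of -0.82 and -0.47, and were not called. The oligodendrocyte list summed to 174 to 193 FPKM in ferret and 69.6 FPKM in both mouse libraries. Microglia markers moved the other way, with 11 of 11 tested called lower and sums of 6.90 to 7.79 FPKM in ferret and 565 to 598 FPKM in mouse astrocytes. Cx3cr1 was listed at 0 in both ferret libraries. The 8 meningeal fibroblast markers were also all called lower, with sums of 112 to 127 FPKM against 1550 to 1576 FPKM. These lists move with the species in the same libraries as Gria1, Gria3, Gria4, Grik2 and Grik4, and their part in the subunit differences was not tested.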

How the data were processed

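The deposited files give 1 FPKM value per gene and library. The authors aligned paired-end reads of stranded, polyA-selected libraries to the ferret (MusPutFur1.0.99) and mouse (GRCm38) genomes with STAR 2.7.0f and derived FPKM with Cufflinks 2.2.1 on Ensembl annotation. FPKM holds no read numbers. The read counts that the study lists in its supplement were not used here, so depth was not analysed and no counting interval is given. Symbols were joined without regard to case, and the row with the highest species mean was used for a repeated symbol. The sums over shared symbols were 227391 to 236543 FPKM in ferret and 300465 to 308121 in mouse libraries.

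Species were compared with limma 3.58.1 in R 4.3.3 on log2(FPKM + 1), with an expression trend, for 10204 genes with a mean of 1 FPKM or more in either species. This scale understates the change of low genes. A call needed an adjusted p (Benjamini-Hochberg) below 0.05 together with a log2 difference beyond 1 in size. On simulated data for this comparison (10204 genes, 200 changed by 1.5 on the log2 scale), 100% were recovered and 0 unchanged genes were called. The simulated spread was that between duplicates, and the unchanged genes had no species difference. The simulation therefore cannot address calls that come from scaling, annotation or duplicates that share a culture. Shares were computed within libraries and compared by exact permutation. The members, gene lists and tests were chosen with earlier results of these data known. Named were all members and the other receptor genes reported, up to 5 called genes per direction with the largest differences over the remaining receptor lists, markers of highest mean or near 0 that define a cell type, and the 3 genes closest to the member of highest mean. Cacng4, Cacng7, Cnih2, Shisa6, Neto2, Adarb1, Adar, Dlg4, Cask, Slc1a4 and Gldc were named after their values were seen. Alternatives were another pseudocount, no minimum level, rescaling, quantile normalization, a replicate block, summed rows, no trend and each library left out. Species, annotation, culture and stage of development cannot be told apart. The paper states that astrogenesis covers a different period in each species. Ferret sequences were not analysed here, and 1 receptor gene is not reported here.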

Additional observations from a re-analysis of the deposited data

How the results depend on the processing

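All 5 called subunits (Gria1, Gria3, Gria4, Grik2 and Grik4) kept their call and direction under every alternative run. With libraries rescaled to equal sums, or quantile normalized, the median log2 difference of all genes tested moved from -0.35 to -0.01 and 0.05, and Grik5 turned from -0.32 to 0.054 and 0.070. The count of all genes called higher in ferret astrocytes moved from 1336 to 2076 after quantile normalization, and the calls in the higher direction from 30.3% to 49.8% of all calls (46.9% after rescaling). The replicate numbers come from the labels alone, and the deviations of same-numbered libraries had a correlation of 0.01 over 10204 genes. With the replicate block, 1342 genes were called higher and 3072 lower, and no call among these receptor genes changed.

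Quantile normalization moved some shares by more than the spread between duplicates: in mouse astrocytes Gria1 to 2.41% and Gria4 to 5.11% of AMPA, and Grik2 to 10.5%, Grik4 to 2.34% and Grik5 to 87.1% of kainate subunits, and in ferret astrocytes Grik4 to 9.45%. With the 7 further receptor genes in the sums, which was added once the data had been seen, AMPA subunits held 62.5% in ferret and 66.1% in mouse, kainate subunits 28.2% in ferret and 29.5% in mouse, and NMDA subunits 5.70% in ferret and 3.90% in mouse astrocytes. Within families, Grik4 then held 8.54% in ferret, Grik5 58.1% in ferret and 84.5% in mouse, Grin1 1.07% in ferret and 7.78% in mouse, and Grin2a 0.4002% in mouse astrocytes, since more genes share each sum. A pseudocount of 0.1 brought Grik3 (1.35), Grin1 (-1.18), Grin2b (1.84), Grin2c (-2.94), Grin2d (-2.11) and Grin3b (1.43) past the limit for a call, as did quantile normalization for Grik3 (1.05). The depth behind values under 1 FPKM was not analysed here.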

Other observations

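Genes of receptor scaffolds and of the NMDA receptor co-agonists were called about as often as genes at large, of which 43.2% were called, so the values below describe single genes and not the groups. Of 15 scaffold and trafficking genes, 14 were shared and 12 tested, with 2 called higher and 3 lower in ferret astrocytes by limma. Akap5, which encodes an anchoring protein that holds protein kinase A and calcineurin near GluA1, had 15.7 and 16.4 FPKM in ferret and 0.344 and 0.298 FPKM in mouse astrocytes. Both ferret libraries were the high ones, and limma put the log2 difference at 3.69 ± 0.075 (SE), adjusted p = 9.35e-11. Grip2, which encodes a PDZ protein that binds the tails of GluA2 and GluA3, had 2.16 and 2.22 FPKM in ferret and 0.036 and 0.028 FPKM in mouse astrocytes, a log2 difference of 1.63. Dlg3, which encodes SAP102, had 3.40 and 3.59 FPKM in ferret and 14.3 and 13.7 FPKM in mouse astrocytes, a log2 difference of -1.74. Dlg4, which encodes PSD-95, and Cask were called lower as well, at log2 differences of -1.18 and -1.01, and lost the call after rescaling, at -0.81 and -0.64. Cask also lost it without ferret replicate 1 (-0.998) or mouse replicate 1 (-0.995).

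Of 7 co-agonist genes, 5 were tested by limma, with 0 called higher (1 by p alone, adjusted or not, and 1, Gldc, after quantile normalization) and 2 lower in ferret astrocytes. By the adjusted p alone, 32.4% of all genes tested were higher and 56.2% lower. After quantile normalization, 2076 of the 10204 genes tested were called higher and 2090 lower. Srr, which encodes serine racemase, the enzyme that makes D-serine, had 1.77 and 1.70 FPKM in ferret and 23.2 and 26.7 FPKM in mouse astrocytes. The species did not overlap, and limma gave -3.24 ± 0.083 (SE) on the log2 scale, adjusted p = 3.48e-10. Slc1a4, which encodes a carrier of neutral amino acids that takes up serine, had 7.98 and 8.11 FPKM in ferret and 26.5 and 26.8 FPKM in mouse astrocytes, a log2 difference of -1.61. Gldc, which encodes the glycine decarboxylase that breaks glycine down, had 31.8 and 33.1 FPKM in ferret and 19.9 and 21.7 FPKM in mouse astrocytes, a log2 difference of 0.62 that was not called.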
